A study of Mus musculus with 2 samples.

Results

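Granins and the enzymes that mature prohormones were measured in the mouse left cerebral cortex as a set of 10 genes, taken by symbol from 55536 annotated genes. The set holds the granins Chga, Chgb, Scg2 and Scg3, the granin-like precursor Vgf, the convertases Pcsk1 and Pcsk2, their partners Pcsk1n and Scg5, and the carboxypeptidase Cpe. The samples form a single group of 2 polyadenylated RNA libraries, replicates 1 and 2, each made from 20 ng of RNA by Nextera tagmentation. The animals were adult B6NCrl mice, a C57BL/6 substrain, aged 6 months, with no allele or treatment given in the labels. The libraries had separate biosample entries and replicate numbers but the same donor entry, so that whether they came from separate animals is not clear and the spread between them may be technical. Levels are in TPM, which is scaled for transcript length and library size, as mean ± SD over n = 2 libraries.

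Neurons store peptide hormones in dense core vesicles, apart from the small vesicles that hold glutamate or GABA. Granins are acidic secreted proteins that aggregate in the trans-Golgi network with the precursors and help form these vesicles. Inside them, convertases cut the precursors after pairs of basic residues, and a carboxypeptidase trims the basic residues left at the ends. In the cortex the cargo includes cholecystokinin, neuropeptide Y and somatostatin.

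Replicate 1 was sequenced to 51888490 fragments assigned to genes and replicate 2 to 26776276, with mean fragment lengths of 164 and 124 bases. Cortical markers were present, with Snap25 of neurons at 2545 ± 262 TPM and Camk2a of excitatory neurons at 965 ± 166. Of the 7 markers listed for interneurons Lamp5 was highest at 252 ± 38.5 and Slc32a1 lowest at 9.9 ± 3.5. Markers of the endocrine tissues best known for granins were low, with those of the pituitary at or near 0. Of 6 pituitary markers 3 had no fragment in either library and Tshb, the highest, reached 0.155 ± 0.163 TPM, while of 5 markers of the adrenal medulla and catecholamine neurons Th was highest at 2.57 ± 0.141. Of 6 hypothalamic markers Pomc was highest at 5.21 ± 0.0636 and Oxt lowest at 0.34 ± 0.113. The description called the tissue male, yet of the 4 genes of the Y chromosome counted (Uty, Ddx3y, Eif2s3y, Kdm5d) none had over 4 fragments, and Xist had 1408 and 485, so both libraries went against that label.

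All 10 genes were detected at 1 TPM or more in both libraries. Together they held 0.55% of the fragments of replicate 1 and 0.445% of those of replicate 2. Cpe alone made up 47.2% and 51.6% of their summed TPM. The median over the 10 genes was 128 TPM in replicate 1 and 129 in replicate 2, against 11.2 and 10.2 over the 14656 genes tested between the libraries.

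Among the granins, Chgb (chromogranin B; ENSMUSG00000027350.8, chromosome 2, 132781278 to 132795079, plus strand) stood at 141 TPM in replicate 1 and 167 in replicate 2. Chga (chromogranin A; ENSMUSG00000021194.6, chromosome 12, 102554969 to 102565028, plus strand) stood at 161 and 91.7 TPM. Scg2 (secretogranin II, the precursor of secretoneurin; ENSMUSG00000050711.7, chromosome 1, 79434669 to 79440120, minus strand) reached 114 and 131. Of these 3 genes, Chga overlapped each of the others across the libraries and was the one that was higher in replicate 1. Chgb was above Scg2 without overlap by these values, though not by the other quantification given below. Scg3 (secretogranin III, which binds chromogranin A and tethers it to the vesicle membrane; ENSMUSG00000032181.7, chromosome 9, 75643189 to 75684056, minus strand) was at 101 and 108 TPM and had the smallest spread of the 4 relative to its mean. Vgf (a precursor first found as a gene induced by nerve growth factor; ENSMUSG00000037428.14, chromosome 5, 137026392 to 137033351, plus strand) was far below them, at 26.6 and 10.4 TPM.

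The convertases differed widely in level. Pcsk2 (ENSMUSG00000027419.9, chromosome 2, 143546156 to 143816285, plus strand) stood at 94.7 TPM in replicate 1 and 127 in replicate 2. Pcsk1 (ENSMUSG00000021587.5, chromosome 13, 75089826 to 75134861, plus strand) was at 6.32 and 7.35 TPM, the lowest of the 10 genes in both libraries. The ratio of Pcsk2 to Pcsk1 was therefore 15.0 in replicate 1 and 17.2 in replicate 2 (16.1 ± 1.57). Pcsk2 overlaps the antisense genes Pcsk2os1, with 289 and 178 fragments, and Pcsk2os2, with 3 and 1, against 17357 and 11871 for Pcsk2. The sources used here do not say whether counting used strand, so reads of the overlapping stretches cannot be told apart.

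The partners of the convertases were more abundant than the enzymes. Scg5, the chaperone that the Pcsk2 product needs to become active (ENSMUSG00000023236.7, chromosome 2, 113776362 to 113829121, minus strand), reached 313 and 365 TPM. That was 3.31 and 2.89 times the level of Pcsk2 (3.10 ± 0.296). Pcsk1n, which encodes proSAAS, an inhibitor of the Pcsk1 product (ENSMUSG00000039278.10, chromosome X, 7919822 to 7924410, plus strand), was at 925 TPM in replicate 1 and 375 in replicate 2. Its ratio to Pcsk1 was 146 and 51.0, a mean of 98.7 ± 67.4, so that this ratio was not settled by 2 libraries. Cpe, the carboxypeptidase (ENSMUSG00000037852.8, chromosome 8, 64592542 to 64693054, minus strand), stood at 1685 and 1472 TPM, 16.7 and 11.0 times the summed level of both convertases.

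Ordered by mean level, the genes ran from Cpe (1579 ± 151 TPM) over Pcsk1n (650.0 ± 389), Scg5 (339 ± 36.9), Chgb (154 ± 17.8), Chga (126 ± 49.2), Scg2 (122 ± 11.6), Pcsk2 (111 ± 22.5) and Scg3 (105 ± 4.70) to Vgf (18.5 ± 11.5) and Pcsk1 (6.83 ± 0.728). Among the nuclear protein coding genes of the annotation (22015), Cpe ranked 60, Pcsk1n 213, Scg5 398 and Chgb 906, while Vgf ranked 5313 and Pcsk1 8524. From Chgb down to Scg3 each gene overlapped the next in its range over the libraries, so the order of neighbours there was not resolved. In the gene tables Scg2 was nonetheless above Pcsk2 within each library. By the gene tables alone, genes further apart could be ordered: the lower Chgb value, 141 TPM, was above every value of Scg2, Pcsk2 and Scg3. Likewise the lower Scg2 value, 114 TPM, was above both values of Scg3. The steps from Cpe to Pcsk1n, Pcsk1n to Scg5, Scg5 to Chgb, Scg3 to Vgf and Vgf to Pcsk1 showed no overlap. The step from Pcsk1n to Scg5 was narrow, since 375 TPM for Pcsk1n in replicate 2 lay next to 365 for Scg5 in the same library. In the second transcript tables, which hold another quantification of the same reads, Pcsk1n was at 299.9 and Scg5 at 308 in replicate 2, so their order turned in that library. Pcsk2 there was at 110.2 and Scg2 at 106.8, so that order turned too. The lower Chgb value by that quantification, 106.3, was below both. The lower Scg2 value, 83.3, was below the higher Scg3 value, 92.4. Within each library of the second tables Chgb was still above Scg2 and Pcsk2, and Scg2 above Scg3.

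**Figure D1:**
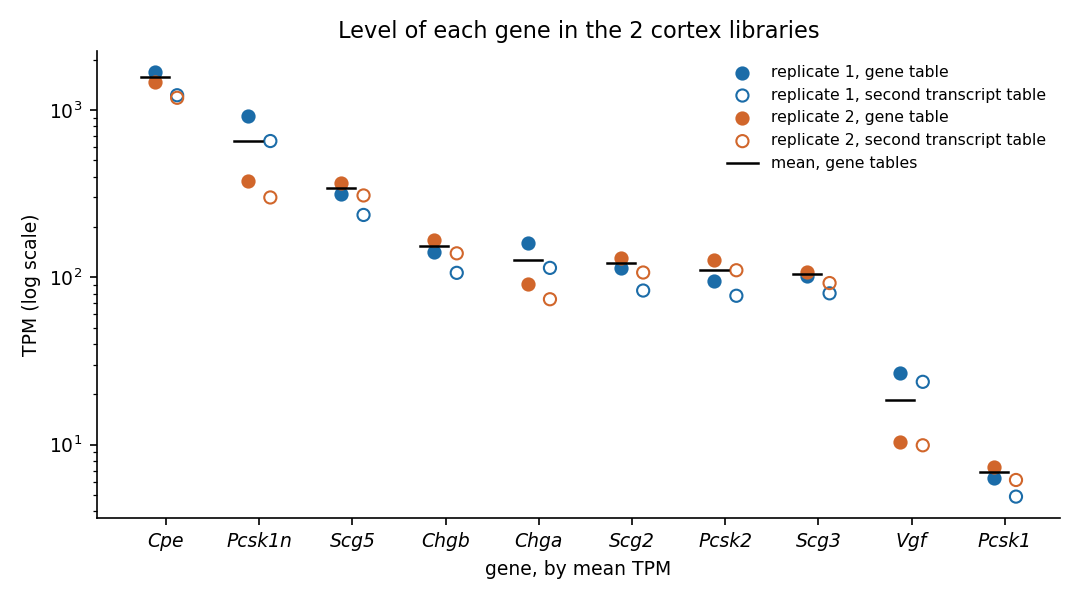
TPM on a log scale (vertical axis) of the 10 genes in order of mean level (horizontal axis), with filled points for the gene tables, open points for the second transcript tables, blue for replicate 1, orange for replicate 2 and a bar at the mean of the gene tables. Cpe stands highest at 1579 TPM, Chgb to Scg3 form a band between 91.7 and 167 TPM, and the points of Pcsk1n, Chga and Vgf lie furthest apart.

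The 10 genes have 29 annotated transcripts. The main transcript, the one with the highest TPM, was the same in both libraries for all 10 genes in the first transcript tables and for all 10 in the second, and was shared by the tables for 8. In 7 genes 1 transcript held at least 98% of the gene's TPM in both libraries of the first tables: Chga-201, Chgb-201, Pcsk1-201, Pcsk2-201, Scg5-201, Pcsk1n-201 and Cpe-201. Chgb and Pcsk1n have no other annotated transcript. Scg2, Scg3 and Vgf were divided.

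Scg2 came in near equal parts from a transcript with 2 exons (Scg2-201, starting at 79440120) and one with 3 exons (Scg2-202, starting at 79440042). Scg2-202 held 54.6% in replicate 1 and 52.2% in replicate 2 of the first tables, but 47.6% and 47.4% in the second, where Scg2-201 led at 52.4% and 52.6%. The libraries were closer to each other than the quantifications were, and which form leads was not resolved. Scg3-202 led Scg3 in every table, with 61.8% and 67.3% in the first and 64.97% and 73.2% in the second. Scg3-201, which also has 12 exons, held 33.0% and 27.4% in the first tables and 23.1% and 20.5% in the second.

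Vgf varied most. Vgf-201, with 2 exons, held 73.4% in replicate 1 and 45.8% in replicate 2 of the first tables, and 32.8% and 18.5% in the second. Vgf-204, with 5 exons and a start upstream at 137026392 in place of 137030295, held 10.1% and 16.1% in the first tables but 41.0% and 50.6% in the second. The short Vgf-203 (581 bases) held the remaining 16.5% and 38.2% in the first, and 26.2% and 30.8% in the second. In both quantifications the share of Vgf-201 was lower in replicate 2, while the main form itself differed between the quantifications. In the first tables these shares rest on 1877 and 236 fragments for Vgf-201, 288 and 92.6 for Vgf-204 and only 73.6 and 37.1 for Vgf-203.

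**Figure D2:**
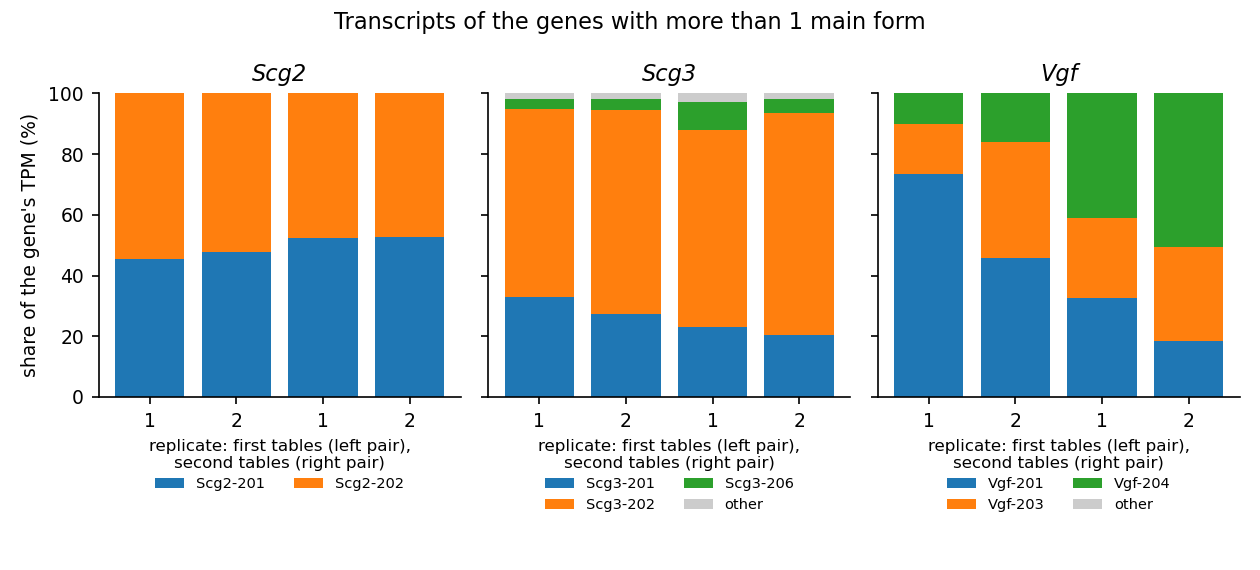
Share of each gene's TPM (vertical axis, percent) by transcript for Scg2, Scg3 and Vgf, with 1 bar per replicate for the first and second transcript tables (horizontal axis). The bars of Scg2 and Scg3 look alike across libraries, whereas the Vgf-201 share ranges from 18.5% to 73.4% over its 4 bars.

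Promoters are shown for the 3 genes whose start region holds the full cAMP response element TGACGTCA, the palindromic site bound by CREB. RefSeq windows (GRCm38.p6, from 250 bases before to 50 after the start) were at hand for 8 of the 10 genes and not for Vgf and Cpe. In each sequence below, written 5′ to 3′ on the gene's strand, the capitals mark that element.

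Chgb (chr2:132781392-132781691, plus strand): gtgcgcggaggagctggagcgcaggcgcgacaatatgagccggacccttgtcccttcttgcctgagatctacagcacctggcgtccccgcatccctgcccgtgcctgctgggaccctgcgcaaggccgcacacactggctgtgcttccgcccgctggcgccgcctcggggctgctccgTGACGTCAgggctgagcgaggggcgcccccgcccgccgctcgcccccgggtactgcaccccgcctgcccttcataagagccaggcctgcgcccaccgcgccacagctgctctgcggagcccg

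Scg2 (chr1:79439977-79440276, minus strand): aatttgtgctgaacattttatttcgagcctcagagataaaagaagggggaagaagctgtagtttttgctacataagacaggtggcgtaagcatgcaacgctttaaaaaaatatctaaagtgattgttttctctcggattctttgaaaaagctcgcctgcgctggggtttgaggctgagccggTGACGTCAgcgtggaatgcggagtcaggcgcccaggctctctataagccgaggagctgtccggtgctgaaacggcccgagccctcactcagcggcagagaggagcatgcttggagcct

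Pcsk1 (chr13:75089607-75089906, plus strand): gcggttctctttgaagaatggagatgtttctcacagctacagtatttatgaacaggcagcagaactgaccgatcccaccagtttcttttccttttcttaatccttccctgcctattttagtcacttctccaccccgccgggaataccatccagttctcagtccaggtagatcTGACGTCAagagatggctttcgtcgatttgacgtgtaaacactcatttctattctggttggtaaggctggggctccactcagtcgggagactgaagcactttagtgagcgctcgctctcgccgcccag

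The element began 72 bases before the RefSeq start in Chgb, 68 in Scg2 and 78 in Pcsk1. Of all 32851 windows in the table, 588 (1.79%) held it on either strand. GENCODE places the starts differently. The element lies 292 bases inside Chgb-201, whose annotated start is further upstream, 47 bases before the start of Pcsk1-201, and between the starts of Scg2, 26 bases inside Scg2-201 and 52 bases before Scg2-202. The half-site TGACG, which is part of the full element and was counted on both strands, was in 7 of the 8 windows (all but Pcsk1n) and in 20.8% of all windows. A GC box, GGGCGG, on either strand was in 6 of the 8, with Scg2 and Scg3 lacking it, and in 35.7% of all windows. TATAAA was in the Chga window alone of the 8 and in 13.6% of all. These matches describe letters, not binding.

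The libraries were compared with each other, since no second group was studied. Of the 10 genes, 4 were lower in replicate 2 (Vgf, Pcsk1n, Chga and Cpe) and 4 were higher (Pcsk2, Scg5, Chgb and Scg2), while Scg3 and Pcsk1 did not pass the test. The test was an exact two-sided binomial test of the fragments at TMM library sizes, adjusted by Benjamini-Hochberg over all 14656 genes tested. It covers counting error only and compares these libraries, not conditions. Of all genes tested, 62.6% were called, with 26.2% higher and 36.4% lower in replicate 2, so a call is common at this depth. At a fold of at least 1.5 as well, 3 of the 10 genes were lower and 0 higher, beside 17.2% and 3.22% of all genes tested. The median log2 ratio of the 10 genes was 0.01, against -0.03 over all genes tested. With the GC and length trends described below removed, these medians were -0.06 and -0.05, and under total-count scaling 0.14 and 0.09. No member was higher by 1.5-fold under any scaling, filter or quantification tried, with or without a call. In whole tissue, fewer cells of a type and less RNA per cell cannot be told apart.

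Vgf had 2239 fragments in replicate 1 and 366 in replicate 2, a log2 ratio of -1.75 between CPM values (counts scaled to library size, plus 0.5) with a 95% counting interval, without that pseudocount, of -1.95 to -1.63 (adjusted p = 1.43e-138 by the binomial test across all genes). Pcsk1n had 75436 and 15839 fragments, a log2 ratio of -1.43 (-1.45 to -1.40). Chga had 11075 and 3259 fragments, a log2 ratio of -0.94 (-0.996 to -0.88). Vgf was thus 3.36-fold, Pcsk1n 2.69-fold and Chga 1.91-fold lower in replicate 2, and only 2.93%, 4.72% and 9.85% of the genes tested had a lower ratio than these. For Cpe the fragments were 132095 and 59720, a log2 ratio of -0.32 (-0.33 to -0.31), which is a 1.25-fold difference.

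The other members lay close together. Pcsk2 was 1.21-fold higher in replicate 2 (17357 and 11871 fragments, log2 ratio 0.28, 0.24 to 0.31), with 84.2% of the genes tested below it. Scg5 was at 0.13 (0.09 to 0.17), Chgb at 0.11 (0.07 to 0.14) and Scg2 at 0.07 (0.02 to 0.12). Pcsk1 had a log2 ratio of 0.08 (-0.06 to 0.21, adjusted p = 0.32 by the same binomial test) on 1238 and 737 fragments, and Scg3 one of -0.04 (-0.09 to 0.01, adjusted p = 0.171). Thus by TMM scaling the 2 convertases, Scg5 and the granins other than Chga differed by no more than 1.21-fold, while Vgf, Pcsk1n and Chga differed most. Under total-count scaling, which moves the median of all genes from -0.03 to 0.09, 6 members were higher and 4 lower: Scg3 turned to 0.09 and Pcsk1 passed the test at 0.20. Pcsk2 then was at a log2 ratio of 0.41, past the 1.21-fold of TMM scaling. Over all genes the calls then were 5776 higher and 4134 lower, in place of 3843 and 5328 by TMM.

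**Figure D3:**
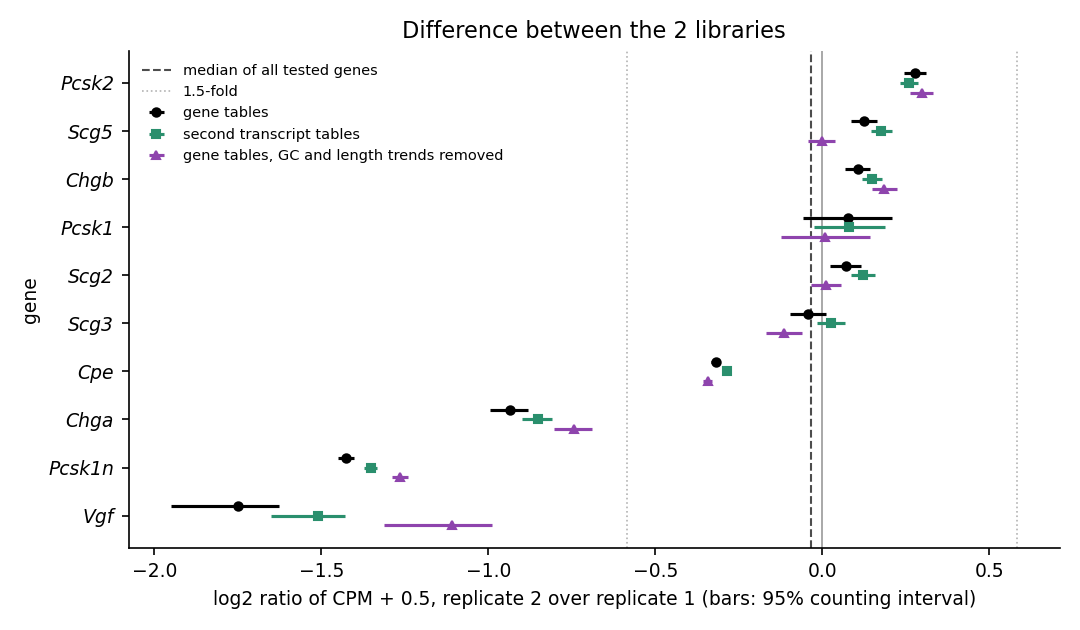
Log2 ratio of replicate 2 over replicate 1 (horizontal axis) for each gene (vertical axis), from the gene tables (circles), the second transcript tables (squares) and the gene tables after removal of GC and length trends (triangles), with 95% counting intervals as bars, the median of all tested genes as a dashed line and 1.5-fold as dotted lines. Vgf, Pcsk1n and Chga lie left of the 1.5-fold line by all 3 measures, and Pcsk2 lies highest at 0.28 in the gene tables.

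GC content moved with the ratio. The 3 genes furthest below were the 3 richest in GC, with 64.2% in Vgf, 58.4% in Chga and 57.3% in Pcsk1n, against 53.9% in Chgb and 40.6% to 49.7% in the others. Across the 10 genes Pearson's r was -0.863 and Spearman's rho -0.673, and across 14646 genes rho was -0.307. These are descriptions, since all points share the same libraries and genes are not replicates. The median log2 ratio of all genes fell from 0.02 in the 3963 genes of 45 to 50% GC to -0.20 in the 3191 of 55 to 60% and -0.56 in the 672 of 60 to 65%. Pcsk1n, Chga, Vgf and Cpe lay below the lower quartile of their class, which was -0.64 for the first pair, -1.23 for Vgf and -0.23 for Cpe. Pcsk2 lay above the upper quartile of its class, 0.21.

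After the trends on GC content and transcript length were removed, Pcsk1n was at -1.26 (-1.29 to -1.24), Vgf at -1.11 (-1.31 to -0.99) and Chga at -0.74 (-0.80 to -0.69), all still past 1.5-fold. Among the smaller differences the removal changed calls. Scg5 came to 0.00 (-0.04 to 0.04) and Scg2 to 0.01 (-0.03 to 0.06), neither called, and Scg3 to -0.11 (-0.17 to -0.06), which was called. Pcsk2 remained at 0.30 (0.26 to 0.33) and Chgb at 0.19 (0.15 to 0.22).

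**Figure D4:**
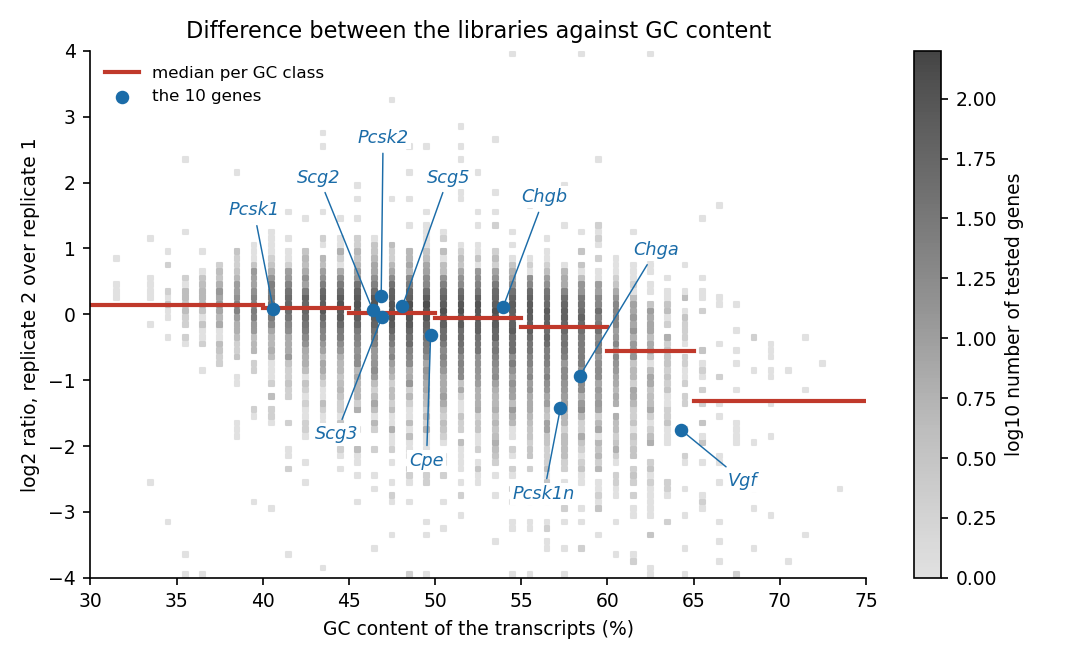
Log2 ratio of replicate 2 over replicate 1 (vertical axis) against the GC content of a gene's transcripts in percent (horizontal axis), for all tested genes as a grey density with ratios beyond the axis set at its edge, the median per GC class as red lines and the 10 genes as blue points. Vgf, Pcsk1n and Chga lie below the median of their class, as does Cpe at -0.32, while Pcsk2 lies above its own at 0.28.

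Other genes of the pathway were read from lists. Of 7 other proprotein convertases 2 were higher and 2 lower in replicate 2 and 3 did not pass the test (median log2 ratio -0.09). All were low: Mbtps1, the site protease of sterol regulators, stood at 12.4 ± 1.47 TPM, Pcsk7 at 5.64 ± 0.0636 and Pcsk5, the lowest, at 2.17 ± 0.163. Furin, the convertase of the constitutive pathway, was lower in replicate 2 (3.39 and 1.21 TPM, log2 ratio -1.56), as was Pcsk6 (4.32 and 2.23 TPM, -1.09). Pcsk2, at 111 TPM, was thus well above every other convertase measured here, of which Mbtps1 was the highest.

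Relatives of Cpe were far below it. Of 7 such carboxypeptidases 5 could be tested, of which 1 was higher and 2 were lower (median -0.13). Cpm stood at 6.64 ± 1.43 TPM (log2 ratio 0.50), Cpd at 6.61 ± 2.06 (-0.92) and Cpz lowest at 0.22 ± 0.0424. Of 12 genes of other maturation steps 8 were higher, 3 lower and 1 did not pass (median 0.14). The signal peptidase subunits Spcs1 (438 ± 39.8 TPM, log2 ratio 0.13) and Sec11c (273 ± 21.9, 0.08) led in level, though both turned with the GC and length trends removed, to -0.10 and -0.05, and the list's median then was 0.02. Qpctl, which forms pyroglutamate ends, was lowest at 9.60 ± 1.03. Pam, the enzyme that amidates peptide ends, was lower in replicate 2 (109 and 91.4 TPM, -0.42), as was the sulfotransferase gene Tpst1 (29.5 and 21.9, -0.57).

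Of 15 genes of dense core vesicle biogenesis and release 14 could be tested, with 5 higher, 6 lower and 3 not called (median -0.01). Resp18, a luminal vesicle protein, was highest at 198 ± 37.3 TPM, followed by the trafficking GTPase Rab2a at 165 ± 112, and Sytl4 was lowest at 0.275 ± 0.276. Rab2a was at 244 TPM in replicate 1 and 86.2 in replicate 2 (log2 ratio -1.62) at a GC content of 44.4%. Syt4, a vesicle synaptotagmin, was higher in replicate 2 (41.5 and 66.4 TPM, 0.54).

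The precursors that these enzymes cut were mostly higher in replicate 2. Of 19 prohormone genes 12 were higher, 1 was lower and 6 did not pass the test (median log2 ratio 0.24, GC content 51.9% at the median). Cck (2080.0 ± 424 TPM, log2 ratio 0.29) and Npy (653 ± 137, 0.42) led in level and Nts was lowest at 2.62 ± 1.598. Nts (0.98, on 65 and 86 fragments) and Cartpt (0.96) differed most. Of 10 genes of vesicle acidification 7 were higher and 3 lower (median 0.14), with the proton pump subunits Atp6v0c at 1741 ± 63.5 TPM (-0.03) and Atp6v1e1 at 514 ± 70.2 (0.17) at the top and the chloride exchanger gene Clcn3 lowest at 35.0 ± 12.3 (0.60). Atp6v0d1 at -0.93 and Atp6v0a1 at -0.83, also pump subunits, differed most. Under total-count scaling the medians of the other convertases and of the dense core vesicle genes turned to 0.03 and 0.12, and with the GC and length trends removed to 0.06 and 0.10. No other pathway list changed the sign of its median under these 2 alternatives.

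Genes induced by neuronal activity were set beside the members, since Vgf and Scg2 are known to respond to it. All 14 genes of the list were lower in replicate 2 (median -1.34, or -1.09 with the GC and length trends removed, at a median GC content of 56.7%). Bdnf, counted with the prohormone substrates and not in this list, was higher at 0.14, or 0.06 with the trends removed. Egr4 was at -3.54 and Nr4a1 at -1.95, Junb (183 ± 113 TPM) and Egr1 (102 ± 60.6) led in level with -1.46 and -1.47, and Fosb was lowest at 1.75 ± 1.05. Vgf at -1.75, Pcsk1n at -1.43 and Chga at -0.94 lay within the range of this list, -3.54 to -0.54, and the other 7 members did not. That range is wide, and 17.2% of all genes tested were called lower by at least 1.5-fold. The 3 members with a full cAMP response element in their window, Chgb, Scg2 and Pcsk1, were at 0.11, 0.07 and 0.08, while Vgf and Cpe had no window to search. The part of activity in the members' differences was not tested.

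Neuronal markers went both ways. The 7 pan-neuronal markers had a median log2 ratio of -0.33 (2 higher, 5 lower), with Snap25 at 0.12 and Eno2 and Rbfox3 past 1.5-fold lower at -0.93 and -0.90. The 6 excitatory markers also had a median of -0.33 (1 higher, 3 lower), with Camk2a at 0.09 and Tbr1, Slc17a7 and Neurod2 past 1.5-fold lower at -1.69, -1.29 and -0.72. Pcsk1n at -1.43 and Chga at -0.94 lay between Tbr1 and Neurod2. The markers named here beyond Snap25, Camk2a and Neurod2 were chosen after their values were seen. The 7 interneuron markers, which share Sst and Vip with the substrates, had a median of 0.24 (5 higher, 2 lower). Medians were 0.17 for astrocyte (5 higher, 1 lower), 0.13 for oligodendrocyte (3 higher, 2 lower) and 0.10 for microglia markers (4 higher, 1 lower). Endothelial markers had a median of -0.32 (1 higher, 3 lower). Markers of neighbouring tissue were present. Ppp1r1b was highest of the 6 striatal markers at 183 ± 20.1 TPM and Drd2 lowest at 4.54 ± 0.191 (median 23.6 ± 0.0884). Of the 5 choroid plexus markers Ttr was highest at 47.1 ± 10.2 and Aqp1 lowest at 0.025 ± 0.00707 (median 1.19 ± 0.226). The part of cell composition in the members' ratios was not tested.

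**Figure D5:**
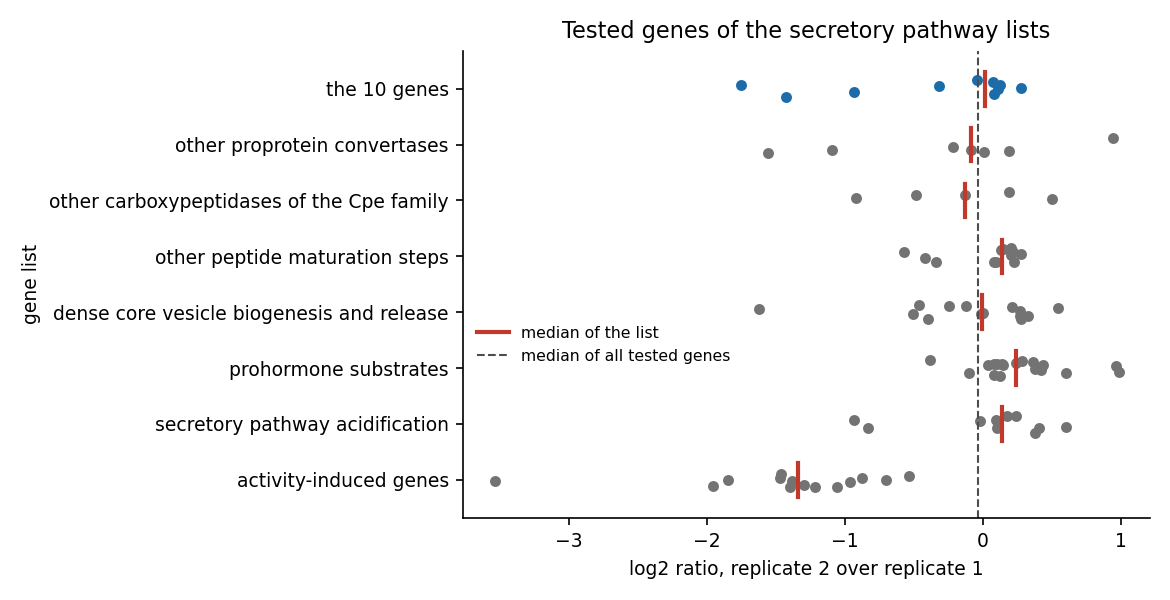
Log2 ratio of replicate 2 over replicate 1 (horizontal axis) for the tested genes of each list (rows; vertical offsets within a row are arbitrary), with list medians in red and the median of all tested genes as a dashed line. The 10 genes spread from -1.75 to 0.28, the prohormone substrates lie mostly to the right with a median of 0.24, and all 14 genes of the activity-induced list lie to the left.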

How the data were processed

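Members and lists were chosen with earlier results of these data known. Each of the 2 libraries had 3 deposited tables on mm10 with GENCODE M21, per the notes deposited with them. Gene tables and first transcript tables hold expected counts, TPM and, for transcripts, the isoform percent, deposited by the authors from transcriptome alignments. The second transcript tables hold estimated counts and TPM made by the authors from the read files. For the quantifiers and strand use: not given in the sources used here.

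Counts were rounded. Rows that are no gene (26345, 1.73e-05% and 3.35e-05% of fragments) were left out. Scaling was by TMM (edgeR 4.0.16, R 4.3.3). Exact binomial tests (scipy 1.17.1) covered genes whose mean CPM reached 1, called at an adjusted p of 0.05. Log2 ratios used a pseudocount of 0.5 CPM, intervals (95%, Clopper-Pearson) none, and both cover counting error only, without molecular identifiers. GC and length trends were lowess fits (fraction 0.3, statsmodels 0.14.6). On simulated counts for 55536 genes, 100 of 100 genes changed 1.5-fold and 6 of 14428 unchanged ones were called. The simulation checks the calling step only. It gives no rate of false calls for the real libraries, because their variation beyond counting error was not estimated. Between the real libraries 62.6% of the genes tested were called.

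The text names all members, and of each pathway list the 2 highest, the lowest and the 2 with the largest absolute ratio, and markers by their extremes. A few marker lists are given by medians and counts of calls only.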

Additional observations from a re-analysis of the deposited data

How the results depend on the processing

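With 1 group there was no test of levels, which were described. The median level of the members, 128 TPM, was 102 by the second transcript tables and 142 when TPM was rescaled to nuclear genes, and with 1 library alone lay between 128 and 129. The members called higher in replicate 2 numbered 4, and 2 after removal of GC and length trends. Scg3 at -0.04 reversed to 0.0867 under total-count scaling and 0.0261 in the second tables, and Scg5 at 0.13 to -0.00101 after removal of the trends, with a counting interval that spans 0. Over all genes, those higher in replicate 2 went from 3843 to 5776 under total-count scaling. Those higher by at least 1.5-fold went from 472 to 830 under that scaling, 685 without a filter on low counts, 258 at a mean CPM of at least 5 and 88 at 2-fold, where those lower went from 2528 to 1288. At 2-fold the members lower numbered 2, without Chga, in place of 3. Of 80 alternative values of the members' log2 ratios, 74 kept direction and call, including those by DESeq2 size factors. Values with another pseudocount kept the main adjusted p, and those with another filter kept the main ratio. Both kinds thus had little room to change. All changes came under total-count scaling, in the second tables or after removal of the trends. The comparison of libraries has no value with 1 left out. No paired analysis was possible because the samples form 1 group.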
